A study of Mus musculus with 29 samples.

Results

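The MHC class II and costimulation genes are 9 genes of antigen presentation to helper T cells, Cd74, H2-Aa, H2-Ab1, H2-Eb1, H2-DMa, Ciita, Cd40, Cd80 and Cd86. They were taken as a list of symbols and matched to the Ensembl identifiers of 3 count tables, where each of the 9 has 1 row among 48709. RNA was sequenced in 29 libraries of 3 experiments in which miR-99b-5p was inhibited with an LNA oligonucleotide (anti-miR-99b), with a scrambled oligonucleotide (sc-control) as the comparison. In the first experiment, 3-month-old male C57BL/6J mice were given lipid nanoparticles with the inhibitor (n = 3) or with sc-control (n = 3) into the prefrontal cortex (PFC) of both hemispheres, and RNA came from the PFC of 1 side 5 days later, so that whole tissue with all its cell types was measured. In the second, primary microglia shaken off mixed glia of CD1 pups (postnatal day 1) and grown in medium with L929-conditioned supernatant were treated for 2 days, 4 cultures with anti-miR-99b and 4 with sc-control. In the third, microglia of the same kind were treated first and then kept for 2 days with cortical neurons of CD1 embryos (day 17.5), 7 cultures after anti-miR-99b and 8 after sc-control, so that the neurons had not been treated themselves. Every mouse and culture received an oligonucleotide, and no untreated group is analysed here. For the cultures, the sources used here do not say which libraries came from separate preparations, so that their p-values measure the spread between libraries, which may be technical.

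Positions are those of GENCODE M21 on GRCm38, and the whole gene is given. H2-Ab1 (ENSMUSG00000073421, 34257689 to 34269419), H2-Aa (ENSMUSG00000036594, 34282744 to 34287823), H2-Eb1 (ENSMUSG00000060586, 34305867 to 34316674) and H2-DMa (ENSMUSG00000037649, 34119541 to 34139101) lie in the MHC on chromosome 17. Ciita (ENSMUSG00000022504, 10480059 to 10528418), Cd86 (ENSMUSG00000022901, 36603869 to 36666081) and Cd80 (ENSMUSG00000075122, 38455561 to 38496335) lie on chromosome 16, Cd40 (ENSMUSG00000017652, 165055627 to 165072948) on chromosome 2 and Cd74 (ENSMUSG00000024610, 60803848 to 60812652) on chromosome 18.

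Each library held between 21324156 and 37901110 reads on genes. The labelled material was checked with 11 lists of marker genes, given as the sum of their CPM (read counts scaled to library size with TMM factors). The sum of 12 microglia markers was 448.6 to 590.7 CPM in the PFC, 9249.7 to 9709.8 CPM in the microglia cultures and 120.2 to 145.5 CPM in the co-cultures, and the sum of 5 neuron markers was 7023.2 to 7782.5, 16.6 to 19.2 and 1992.8 to 2096.1 CPM in the same order. T cell markers (Cd3d, Cd3e, Cd3g and Cd8a) summed to at most 1.43 CPM in any library. The 6 dendritic cell markers summed to 31.1 to 37.7, 59.2 to 77.7 and 28.6 to 32.3 CPM in PFC, microglia and co-cultures. Of these markers, Cd209a had 0 reads in every culture library. Itgax averaged 62.8 CPM in sc-control microglia, and Zbtb46 averaged 28.9 CPM in sc-control co-cultures. The 6 border macrophage markers summed to 9.79 to 13, 507.7 to 539.5 and 10 to 17.1 CPM in PFC, microglia and co-cultures. In sc-control microglia Mrc1 and Ms4a7 averaged 245.0 and 243.0 CPM, and Cd163 averaged 0.527 CPM. The 4 astrocyte markers summed to 982.5 to 1280.6, 206.3 to 241.8 and 1473.5 to 1588.6 CPM, so neither culture lacked them. In bulk RNA, fewer cells of a type and less RNA per cell cannot be told apart, which holds for every level below.

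MHC class II molecules carry peptides of engulfed proteins to the cell surface, where CD4+ T cells read them. The alpha and beta chains (H2-Aa with H2-Ab1 in the I-A molecule, H2-Eb1 in I-E) are assembled on the invariant chain Cd74, which blocks the groove and guides the complex to endosomes. Cathepsins and legumain degrade the invariant chain there, and H2-DM (H2-DMa with H2-DMb1 or H2-DMb2) exchanges its last fragment for peptide, with H2-O (H2-Oa with H2-Ob) as its inhibitor. Ciita is the coactivator that switches the whole set on, usually after interferon gamma, through the RFX, CREB and NF-Y factors bound to conserved X and Y boxes. Cd80 and Cd86 are the B7 ligands of Cd28 and Ctla4, and Cd40 is the receptor through which T cells activate the presenting cell. In the healthy brain, border macrophages carry more class II than parenchymal microglia, which take it up when activated. C57BL/6 mice lack a functional I-E alpha chain, so that H2-Eb1 has no partner there.

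The sequences that bear on the question are the seed of the inhibited microRNA and the promoter elements that class II genes share. Mature miR-99b-5p lies on chr17:17830194-17830215 on the plus strand of GRCm38.p6 (RefSeq), and its seed, bases 2 to 8, is in capitals.

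mmu-miR-99b-5p: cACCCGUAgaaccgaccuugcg

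The letters that pair with this seed, TACGGGT, were searched in the 3′ UTRs of GENCODE M21 transcripts. They occurred in the 3′ UTR of 0 of the 9 genes, and in 291 of 21153 genes with a 3′ UTR, which is 1.38%. No match says only that these 7 letters are not in the annotated 3′ UTRs.

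RefSeq promoter windows, from 250 bases before to 50 bases after the start, were at hand for 4 of the 9 genes, H2-Aa, H2-Eb1, H2-DMa and Cd80. The core letters of the X box (GCAAC) and of the Y box (GATTGG) were searched on both strands, 20 to 45 bases from start to start, and both the letters and the spacing were chosen after the sequences had been seen. H2-Aa (chr17:34287774-34288073, minus strand) and H2-Eb1 (chr17:34305617-34305916, plus strand) hold the pair, with the X letters 81 and 91 bases before the start and the Y letters 32 and 31 bases further on. H2-Oa (chr17:34092129-34092428, plus strand), from the class II genes outside the list, is shown beside them because it holds the pair at the same spacing of 32 bases and returns in the PFC results. The pair is in capitals.

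H2-Aa: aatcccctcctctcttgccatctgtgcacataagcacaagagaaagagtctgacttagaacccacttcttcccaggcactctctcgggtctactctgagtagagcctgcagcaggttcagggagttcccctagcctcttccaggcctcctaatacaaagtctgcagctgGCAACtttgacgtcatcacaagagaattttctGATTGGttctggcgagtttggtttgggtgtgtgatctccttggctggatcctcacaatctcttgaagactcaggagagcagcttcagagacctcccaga

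H2-Eb1: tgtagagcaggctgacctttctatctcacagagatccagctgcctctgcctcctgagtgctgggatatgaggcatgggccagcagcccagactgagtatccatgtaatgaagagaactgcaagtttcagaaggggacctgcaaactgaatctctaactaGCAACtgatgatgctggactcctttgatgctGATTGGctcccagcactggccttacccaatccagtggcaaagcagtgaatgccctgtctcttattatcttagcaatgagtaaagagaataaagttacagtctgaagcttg

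H2-Oa: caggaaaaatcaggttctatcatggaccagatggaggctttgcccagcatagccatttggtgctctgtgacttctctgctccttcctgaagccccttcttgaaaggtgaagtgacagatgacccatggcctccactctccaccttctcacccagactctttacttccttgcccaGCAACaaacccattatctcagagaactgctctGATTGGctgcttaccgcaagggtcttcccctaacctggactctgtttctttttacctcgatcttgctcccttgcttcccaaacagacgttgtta

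Of 32851 windows of this length, 5292 (16.1%) hold the Y letters and 143 (0.435%) hold the pair. Besides these 3, H2-Ob and H2-Eb2 hold it, while no window of H2-DMa, H2-DMb1, H2-DMb2 or Cd80 does. The windows of H2-DMb1 and H2-DMb2 do hold the Y letters. No pair says only that these exact letters are absent at this spacing, and variants of the X letters were not searched.

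The baseline level of the 9 genes was compared first, in the 15 sc-control libraries, which were scaled together. In adult PFC Cd74 led, followed by H2-DMa and the class II chains, in cultured microglia Cd86 and Cd74 led while the class II chains were close to the detection limit, and in the co-cultures every gene except H2-DMa was low. Strain, age, culture and library set all change between the 3 experiments, and their parts cannot be told apart. CD1 is an outbred stock, and how well its class II alleles aligned to the C57BL/6J reference was not tested.

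Per kilobase of annotated exon, which allows levels of different genes to be compared, the order in the PFC (n = 3) was Cd74 at 11.1 ± 3.88 CPM per kb (SD), H2-DMa at 4.7 ± 0.31, H2-Eb1 at 4.35 ± 2.07, H2-Ab1 at 3.6 ± 1.4, H2-Aa at 2.47 ± 1.03, Cd86 at 0.859 ± 0.277, Cd40 at 0.224 ± 0.0214, Ciita at 0.2 ± 0.0448 and Cd80 at 0.147 ± 0.0361. From H2-DMa to H2-Aa each gene overlapped in its spread with the next, as did Cd40, Ciita and Cd80, so that the order inside these sets is not resolved. In microglia (n = 4) the order was Cd86 at 12.3 ± 1.06 CPM per kb, Cd74 at 7.95 ± 0.374, H2-DMa at 3.43 ± 0.414, Cd80 at 1.27 ± 0.231, Cd40 at 0.567 ± 0.121, H2-Eb1 at 0.175 ± 0.00717, H2-Ab1 at 0.132 ± 0.0373, H2-Aa at 0.0337 ± 0.0176 and Ciita at 0.0271 ± 0.0174. The costimulatory genes Cd86 and Cd80 thus stood above all 3 class II chains here, and neither H2-Eb1 and H2-Ab1 nor H2-Aa and Ciita differed beyond their spread. In the co-cultures (n = 8) H2-DMa led at 3.4 ± 0.186 CPM per kb, followed by Cd74 at 0.701 ± 0.183, Cd86 at 0.244 ± 0.0421, H2-Eb1 at 0.189 ± 0.0442, H2-Ab1 at 0.173 ± 0.0374, Ciita at 0.104 ± 0.0228, H2-Aa at 0.101 ± 0.029, Cd80 at 0.0803 ± 0.0347 and Cd40 at 0.0646 ± 0.027. Cd86, H2-Eb1 and H2-Ab1 overlapped with their neighbours within 1 SD, and so did Ciita, H2-Aa, Cd80 and Cd40, while single libraries of the 2 sets overlapped as well.

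**Figure D1:**
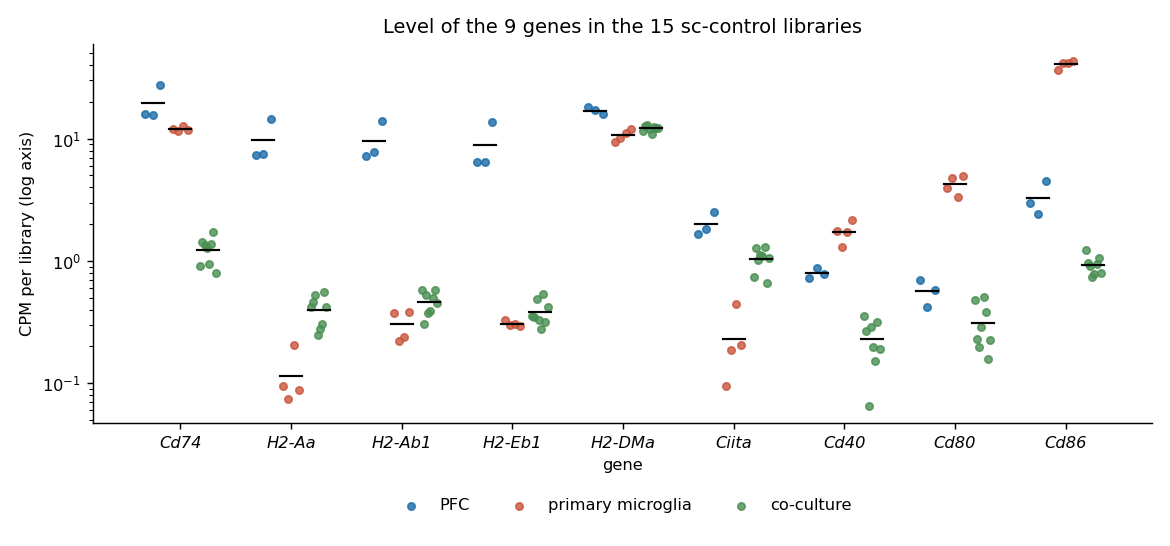
CPM (log axis) of the 9 genes in the sc-control libraries of the PFC (blue, n = 3), the microglia cultures (red, n = 4) and the co-cultures (green, n = 8), scaled within each experiment, with 1 point per library and a black line at the mean. H2-Aa, H2-Ab1 and H2-Eb1 are highest in the PFC and Cd80 and Cd86 in the microglia, while H2-DMa is between 9.48 and 18 CPM everywhere.

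The class II chains separated the PFC from both cultures. H2-Aa was at 9.38 ± 3.93 CPM in the PFC (SD, n = 3), 0.128 ± 0.067 CPM in microglia (n = 4) and 0.385 ± 0.11 CPM in the co-cultures (n = 8). In microglia this rests on 13 reads over 4 libraries. The log2FC of microglia against PFC was -6.14 for H2-Aa, -4.76 for H2-Ab1 and -4.63 for H2-Eb1 (edgeR adjusted p between 2.39e-15 and 6.19e-14, all libraries lower). Cd74 did not share this gap, with 18.7 ± 6.52 CPM in the PFC and 13.3 ± 0.628 CPM in microglia (log2FC -0.49, SE 0.14, adjusted p = 0.00223, below the size threshold of 1). Ciita was lower in microglia by a log2FC of -2.81 (SE 0.30, adjusted p = 2.74e-09), with 27 reads over the 4 libraries.

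The costimulatory genes ran the other way. Cd86 was at 44.9 ± 3.89 CPM in microglia (n = 4) against 3.14 ± 1.01 CPM in the PFC (n = 3), a log2FC of 3.82 (SE 0.11, edgeR adjusted p = 2.93e-21). Cd80 had a log2FC of 3.09 (SE 0.22) and Cd40 one of 1.36 (SE 0.22), and in all 3 genes every microglia library was above every PFC library. In counts, 3 of the 9 genes were called higher and 4 lower in microglia than in PFC, where 26.4% and 37% of all 18274 genes were called. The shares of the 9 are thus near those of all genes. These levels are CPM of whole libraries, and the costimulatory genes ran differently when set against microglia markers, as given below.

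In the co-cultures 6 of the 9 genes were called lower than in the PFC (20.5% of all genes) and 0 higher (14.9%). Cd74 fell by 3.97 on the log2 scale (SE 0.16), and the log2FC of the chains was -4.56 to -4.34. Ciita (log2FC -0.97, SE 0.19) stayed just inside the size threshold and passed it with other scaling factors. Against the co-cultures, microglia had 4 genes called higher (24.3% of all genes) and 2 lower (35.2%). Cd74 was 11.1-fold and Cd86 49.5-fold higher in microglia, whereas the differences of H2-Ab1 (log2FC -0.42, SE 0.41, adjusted p = 0.33) and H2-Eb1 (-0.11, SE 0.47, adjusted p = 0.821) did not pass the test, on 34 microglial reads each.

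The number of microglia differs between these materials, so the levels were also set against the summed microglia markers of the same library. Per 1000 CPM of the 12 markers, Cd74 came to 38.7 ± 7.19 CPM in sc-control PFC (SD, n = 3), 1.27 ± 0.0401 in microglia (n = 4) and 9.65 ± 2.59 in the co-cultures (n = 8). H2-Aa came to 19.3 ± 4.91, 0.0122 ± 0.00616 and 3.15 ± 0.912 on the same scale. Cd86 varied far less, at 6.53 ± 1.12, 4.29 ± 0.358 and 7.29 ± 1.06. Cd80 came to 1.16 ± 0.326, 0.451 ± 0.0852 and 2.43 ± 1.03, and Cd40 to 1.63 ± 0.312, 0.184 ± 0.0373 and 1.78 ± 0.679. On this scale Cd86, Cd80 and Cd40 were thus lower in microglia than in the PFC, opposite to their CPM. These ratios are descriptions, since some of the markers also change in culture.

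The chains can also be read against the invariant chain they are built on, in reads per 100 Cd74 reads of the same library. In the 6 PFC libraries H2-Aa had 46.2 to 53, H2-Ab1 45.7 to 52.3 and H2-Eb1 40.2 to 49.9 reads per 100 Cd74 reads. The 3 ratios were thus nearly constant across mice whose Cd74 itself ran from 15.5 to 45.2 CPM. In the 8 microglia libraries the same ratios were 0.483 to 1.6 for H2-Aa, 1.87 to 4.03 for H2-Ab1 and 1.51 to 3.38 for H2-Eb1, so that nearly all reads of these 4 genes came from the invariant chain. In the 15 co-cultures they were 15.2 to 52.4, 21.6 to 64.3 and 15 to 52.4, with medians of 31.2, 33.3 and 24.3, lower than the PFC medians of 48.4, 48.4 and 43. Between treatments the exact two-sided permutation p of the ratios was 0.286 to 0.686 in the microglia and 0.6 to 0.9 in the PFC, where 3 mice against 3 cannot go below 0.1. In the co-cultures the lowest of the 3 was that of H2-Eb1 with a permutation p = 0.0354, on 6 to 15 reads per library and as 1 of 9 such tests.

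**Figure D2:**
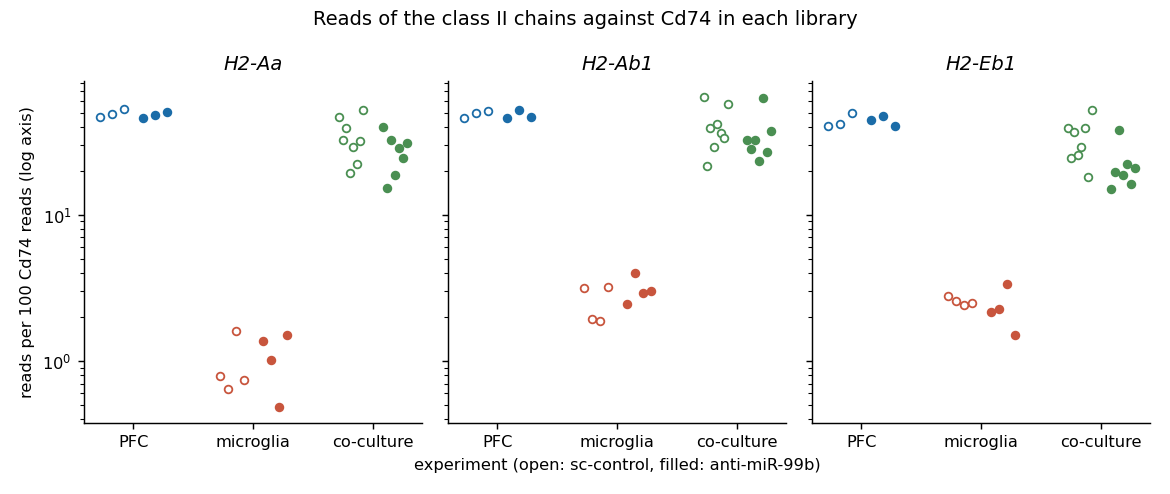
Reads of H2-Aa, H2-Ab1 and H2-Eb1 per 100 Cd74 reads in each of the 29 libraries (log axis), by experiment, with open points for sc-control and filled points for anti-miR-99b. PFC points lie between 40.2 and 53, microglia points between 0.483 and 4.03 and co-culture points between 15 and 64.3.

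H2-DMa did not follow the other loading genes. It was at 16.2 ± 1.07 CPM in the PFC, 11.8 ± 1.43 in microglia and 11.7 ± 0.641 in the co-cultures, while its partner H2-DMb1 was at 1.77 ± 0.315, 12.9 ± 0.915 and 0.201 ± 0.0933 CPM. In the co-cultures H2-DMa thus had 2783 reads and H2-DMb1 49. Of the exon bases annotated for H2-DMa, 360 (10.4%) also belong to Brd2 or Gm20493 on the opposite strand, and the kit does not mark strand. Brd2, a chromatin reader used by every cell, was at 345.8 to 388.4 CPM in the co-cultures, and its part in the reads of H2-DMa was not tested. Ciita shares 329 exon bases (3.45%) with Dexi, which was at 12.5 to 15.4 CPM there. The levels of H2-DMa and Ciita in cultures with few microglia are therefore uncertain.

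The effect of anti-miR-99b in the PFC was examined next. In 2 of the 3 treated mice Cd74 and the 3 class II chains were above all 3 controls, with a log2FC between the groups of 0.77 to 0.84, but none of the 9 genes passed the threshold. Cd74 was at 45.2, 37.3 and 23.1 CPM in anti-miR-99b mice 1, 2 and 3 and at 15.8, 15.5 and 27.5 CPM in sc-control mice 2, 3 and 4. The anti-miR-99b mouse 3 and the sc-control mouse 4 lay between the others, in the order opposite to that of the groups, so the groups overlapped.

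The antigen-binding chains repeated this order mouse by mouse. H2-Aa, the I-A alpha chain, was at 20.9, 18 and 11.7 CPM after anti-miR-99b and at 7.37, 7.5 and 14.6 CPM after sc-control. H2-Ab1, the I-A beta chain, was at 20.6, 19.5 and 10.9 against 7.26, 7.72 and 14 CPM. H2-Eb1, the I-E beta chain, was at 20, 17.6 and 9.31 against 6.4, 6.45 and 13.7 CPM. In each of the 3 the overlap came from the same pair of mice as for Cd74.

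The log2FC was 0.84 for Cd74 (SE 0.26, adjusted p = 0.535), 0.77 for H2-Aa (SE 0.27, adjusted p = 0.623), 0.80 for H2-Ab1 (SE 0.28, adjusted p = 0.608) and 0.81 for H2-Eb1 (SE 0.33, adjusted p = 0.648), all from edgeR's quasi-likelihood test with Benjamini-Hochberg adjustment over 17364 genes. A call in the PFC needed an adjusted p under 0.1 and a log2FC beyond 0.2. By edgeR 0 of the 9 genes were called, where 15 genes or 0.0864% of all were, and 4 of the 9 had an unadjusted p under 0.05, where 7.64% of all genes had. DESeq2's Wald test called 0 of the 9 as well (0.389% of all genes) and gave 1 unadjusted p under 0.05, that of Cd74.

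**Figure D3:**
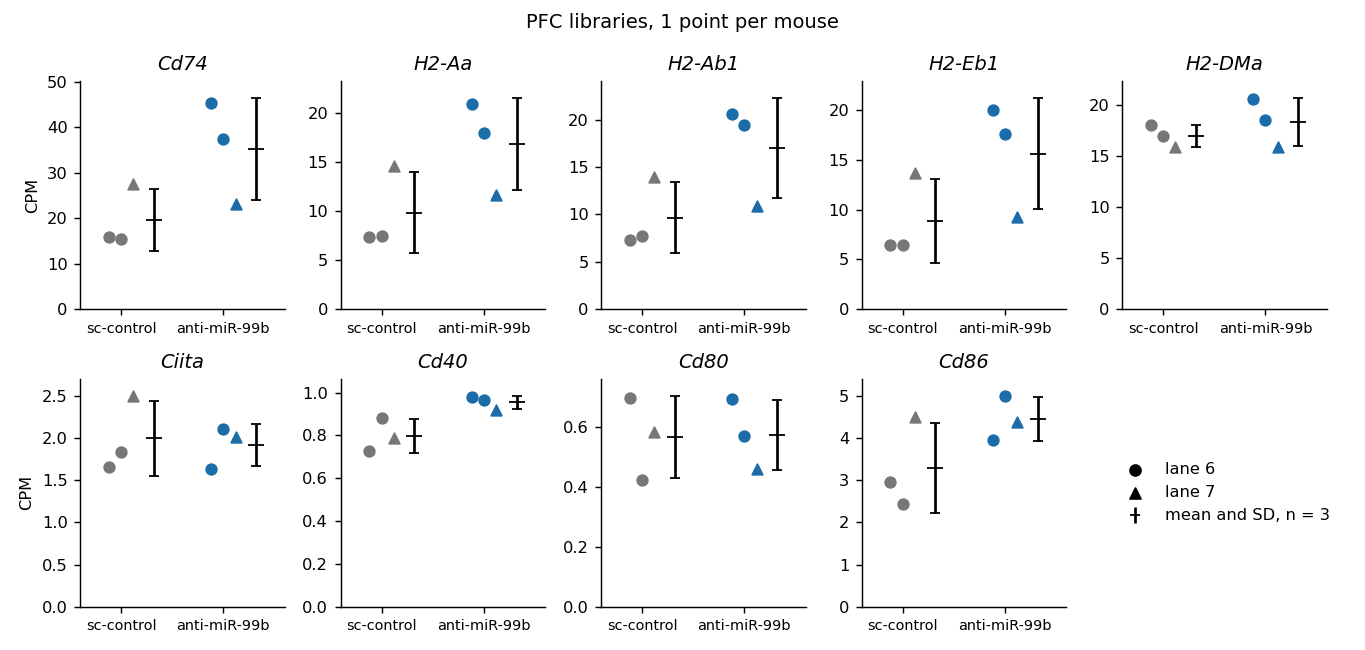
CPM of the 9 genes in the PFC, 1 point per mouse (grey sc-control, blue anti-miR-99b), with circles for sequencing lane 6 and triangles for lane 7 and with the mean and SD of 3 mice beside each group. For Cd74 and the 3 chains the lane 6 groups are apart, and in lane 7 the sc-control mouse is above the anti-miR-99b mouse.

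The pair of mice in between had been sequenced in another lane. In lane 6, with 2 mice in each group, Cd74 averaged 41.2 CPM after anti-miR-99b and 15.6 CPM after sc-control, a ratio of 2.64, and in lane 7, with 1 mouse in each, it was 23.1 against 27.5 CPM, a ratio of 0.841. H2-Aa had ratios of 2.61 and 0.802 in the same lanes. With the lane as a block the log2FC of Cd74 was 0.84 (SE 0.26, adjusted p = 0.3). Fitted on lane 6 alone, which was chosen after seeing the data, 4 of the 9 genes were called (1.99% of all genes), with log2FC of 1.38 to 1.55 for Cd74 and the chains. Without sc-control mouse 4 the same 4 were called (1.14% of all genes), with log2FC of 1.16 for Cd74 (edgeR adjusted p = 0.0542), 1.17 for H2-Aa (0.0449), 1.18 for H2-Ab1 (0.0644) and 1.28 for H2-Eb1 (0.0793). Leaving out any other single mouse gave 0 calls among the 9. Without the filter on low counts 4 of the 9 were called, and many more of all genes were called than with it, as counted in the closing section. The log2FC of Cd74 was then 0.82 (edgeR adjusted p = 5.50e-07), beside 0.84 with the filter. The Cd74 levels of the 2 groups overlapped, with an exact permutation p = 0.2.

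Other genes and cell markers were read in the same mice. Itgax followed the mouse order of Cd74, while the marker sums below did not follow it in full. Itgax, the CD11c integrin of dendritic cells and activated microglia, was at 4.33, 3.61 and 2.66 CPM after anti-miR-99b and at 1.12, 1.06 and 3.32 CPM after sc-control (log2FC 0.92, SE 0.39, edgeR adjusted p = 0.649). It comes from the dendritic cell list, where 2 of 5 genes tested were higher and the median log2FC was -0.02. Clec9a was the other higher gene (0.91), while Zbtb46 (-0.17), Cd209a (-0.07) and Flt3 (-0.02) were lower. The 12 microglia markers summed to 521.6, 590.7 and 564 CPM against 456, 448.6 and 585.3 CPM, and the 4 monocyte markers to 4.33, 5.4 and 3.78 against 2.26, 2.01 and 4.69 CPM. In both lists sc-control mouse 4 was the highest of its group, and so it was for the 4 astrocyte markers, at 1234.3, 1190.0 and 1230.7 against 982.5, 1015.3 and 1280.6 CPM. The 4 oligodendrocyte markers summed to 3849.5, 4368.3 and 5102.2 against 4690.5, 4914.2 and 5108.0 CPM. The 6 border macrophage markers summed to 11.1 to 12.1 against 9.79 to 13 CPM, the 6 dendritic cell markers to 32.5 to 34.1 against 31.1 to 37.7 CPM and the 4 T cell markers to at most 1.43 against 0.211 to 0.99 CPM. The 4 B cell markers, at 1.22 to 1.82 against 0.754 to 0.881 CPM, did not overlap between the groups. By edgeR 0 of the 36 genes tested in these 8 lists were called in the PFC, and their part in the class II levels was not tested. Per 1000 CPM of microglia markers Cd74 was at 41 to 86.6 CPM after anti-miR-99b and 34.5 to 47 CPM after sc-control, and the groups overlapped on this scale too.

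The remaining members differed less in the PFC. Cd86 was at 3.96, 5 and 4.37 CPM after anti-miR-99b and at 2.96, 2.43 and 4.49 CPM after sc-control (log2FC 0.43, SE 0.21, edgeR adjusted p = 0.66), again with sc-control mouse 4 in the range of the treated mice. Cd40 was at 0.98, 0.965 and 0.921 against 0.726, 0.881 and 0.786 CPM, on 24 to 28 reads per library. Its groups did not overlap, but the share of all genes with separate groups was not counted. The log2FC of Cd40, 0.26 (SE 0.21, edgeR adjusted p = 0.754), was far from the threshold. The permutation test of these Cd40 levels gave p = 0.1, the smallest that 3 mice against 3 allow. H2-DMa (log2FC 0.11, SE 0.11), Ciita (-0.05, SE 0.21) and Cd80 (-0.01, SE 0.29) showed no difference past the test. Ciita itself was at 1.63, 2.11 and 2.01 against 1.65, 1.83 and 2.5 CPM, on 40 to 86 reads, with means of 1.87 against 1.74 CPM in lane 6.

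In primary microglia the class II chains were nearly silent, and none of the genes tested was called after anti-miR-99b. The 95% interval was narrow for Cd74 and wide for H2-Ab1 (-0.31 to 0.92) and Cd40 (-0.09 to 0.54). Cd74 was at 11.7 to 12.8 CPM after anti-miR-99b and at 11.6 to 12.8 CPM after sc-control (n = 4 each), a log2FC of 0.01 (SE 0.06, 95% interval -0.10 to 0.13). Cd86, the most abundant of the 9 in these cells, was at 35.3, 44.6, 44.5 and 41 CPM against 36.2, 41.2, 41.3 and 43 CPM, a log2FC of 0.03 (SE 0.06). The groups overlapped for both genes, and for Cd86 the treated libraries reached both the highest and the lowest level.

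Cd40 was at 2.11, 1.71, 2.48 and 1.9 CPM after anti-miR-99b and at 1.75, 1.3, 1.74 and 2.16 CPM after sc-control (log2FC 0.23, SE 0.16, edgeR adjusted p = 0.891). Cd80 (log2FC -0.04, SE 0.12), H2-DMa (-0.03, SE 0.08) and H2-Ab1 (0.31, SE 0.31, on 6 to 16 reads per library) gave no difference past the test. H2-Aa, H2-Eb1 and Ciita, with 2 to 6, 5 to 14 and 2 to 13 reads per library, were below the low-count filter, and a change in them was not detectable at this depth. A call in the microglia needed an adjusted p under 0.1 and a log2FC beyond 0.1, and by edgeR 0 of the 6 genes tested were called (0.488% of all 14953 genes). An unadjusted p under 0.05 occurred in 0 of the 6 (6.45% of all genes), and DESeq2 called 0 of the 5 it gave an adjusted p for (0.28% of all genes), with 0 unadjusted p under 0.05.

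In the co-cultures Cd74 and Cd86 were somewhat higher with anti-miR-99b microglia, and neither passed the threshold of an adjusted p under 0.05 and a log2FC beyond 0.1. Cd74 had a lowest, median and highest level of 1.1, 1.59 and 1.83 CPM after anti-miR-99b (n = 7) and of 0.795, 1.31 and 1.73 CPM after sc-control (n = 8), a log2FC of 0.31 (SE 0.15, edgeR adjusted p = 0.369). Cd86 had 0.935, 1.17 and 1.37 against 0.743, 0.932 and 1.22 CPM, a log2FC of 0.27 (SE 0.13, edgeR adjusted p = 0.376). The groups overlapped for both. Within the lanes the ratio of mean Cd74 levels was 1.29 in lane 4 and 1.3 in lane 7, 1.34 in lane 6 with 1 library each, and 0.924 in lane 5 with 1 library against 3. For Cd86 it was 1.17, 1.25, 1.07 and 1.15 in lanes 4, 7, 6 and 5. Of 11 microglia markers tested in the same libraries 9 had a positive log2FC, and Trem2 (0.70), Cx3cr1 (0.39) and Csf1r (0.34) were called. Itgam (-0.24) and Sall1 (-0.10) were lower and not called. The part of these markers in the levels of Cd74, Cd86 and Cd40 was not tested. Per 1000 CPM of the 12 markers Cd74 was at 8.68 to 13.1 CPM after anti-miR-99b and 6.42 to 13.8 CPM after sc-control, and Cd86 at 7.02 to 10.1 and 5.58 to 8.72 CPM.

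**Figure D4:**
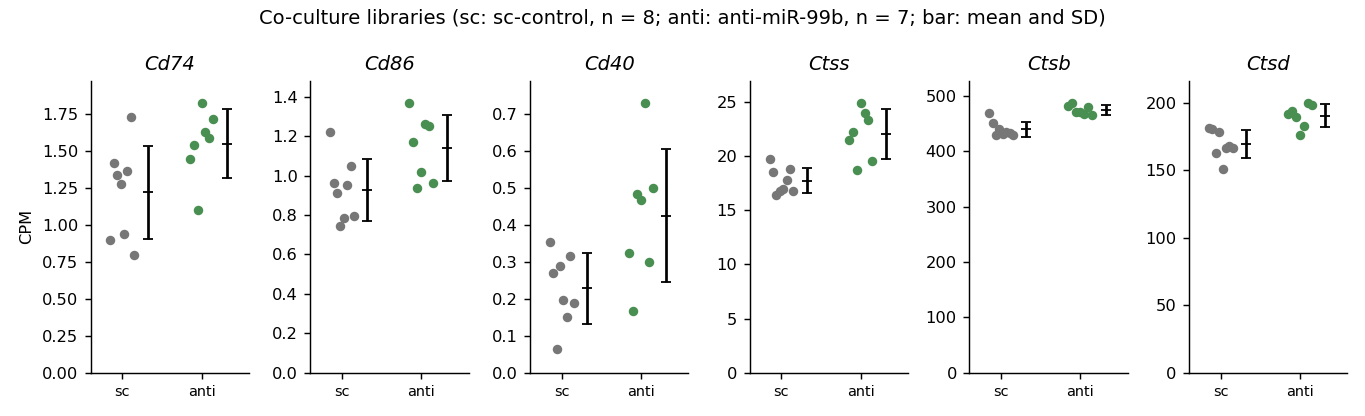
CPM of Cd74, Cd86, Cd40 and 3 cathepsins in the co-cultures, 1 point per library, with the mean and SD of each group beside it (sc-control n = 8, anti-miR-99b n = 7). The ranges of Cd74, Cd86 and Cd40 overlap, and the means of Ctss, Ctsb and Ctsd are higher after anti-miR-99b.

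Cd40 did not pass the filter, with 2 to 22 reads per library. Its levels were 0.168, 0.468 and 0.731 CPM (lowest, median, highest) after anti-miR-99b and 0.0652, 0.233 and 0.354 CPM after sc-control, and 4 of the 7 treated libraries were above every control. The ratio of its means was 0.791 in lane 4, 2.64 in lane 5, 3.08 in lane 6 and 2.02 in lane 7. An exact two-sided permutation test gave p = 0.0162 for Cd40, with p = 0.0292 for Cd86 and p = 0.0451 for Cd74, as 3 of 27 such tests without adjustment. H2-Aa (log2FC 0.01, SE 0.22), H2-Ab1 (0.21, SE 0.22), H2-DMa (-0.02, SE 0.05) and Ciita (-0.02, SE 0.16) gave no difference past the test, and H2-Eb1 and Cd80, at 6 to 15 reads each, were not tested. By edgeR 0 of the 6 genes tested were called (1.4% of all 16193 genes), and 2 had an unadjusted p under 0.05 (13.2% of all genes). DESeq2 called 0 of the 4 it gave an adjusted p for (1.84% of all genes), and its unadjusted p was under 0.05 for Cd74 and for Cd40, which had no adjusted p.

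**Figure D5:**
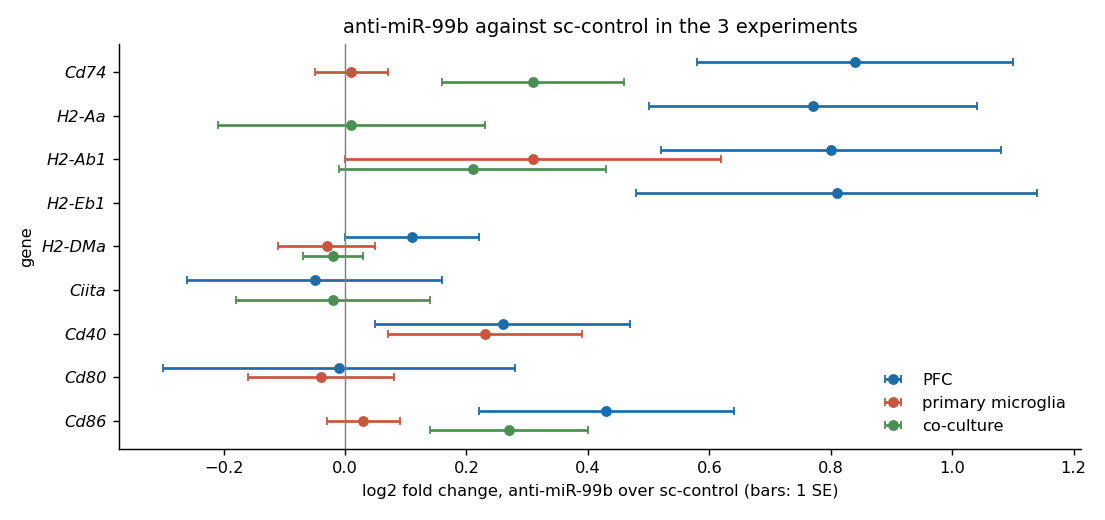
Log2FC of anti-miR-99b over sc-control for each gene tested in the PFC (blue), the microglia (red) and the co-cultures (green), with bars of 1 SE. In the PFC Cd74 and the 3 chains lie between 0.77 and 0.84 with SE of 0.26 to 0.33, in microglia Cd74 and Cd86 lie at 0.01 and 0.03, and genes that did not pass the filter have no point.

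The difference of the effect between experiments was tested in 1 fit over all 29 libraries. By edgeR 0 of the 9 genes passed an adjusted p under 0.05 in any of the 3 differences, where 0.469% of all 18963 genes did between PFC and microglia, 0.791% between PFC and co-cultures and 0.0844% between microglia and co-cultures. Unadjusted p-values under 0.05 occurred in 2, 1 and 0 of the 9. The smallest was that of Cd74 between PFC and microglia, a difference in log2FC of 0.80 (SE 0.22, edgeR adjusted p = 0.0956), followed by H2-Eb1 between PFC and co-cultures with 1.03 (SE 0.46, adjusted p = 0.283) and Cd86 between PFC and microglia with 0.38 (SE 0.17, adjusted p = 0.383).

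Further genes of the pathway were read from 5 lists, beginning with the 14 genes of class II loading and processing. In the PFC 0 of 12 tested were called and 10 had a positive log2FC, their median being 0.26 beside 0.003 for all genes. Ifi30, the thiol reductase that opens antigens in lysosomes, had a log2FC of 0.65 (SE 0.23), Ctss, the cathepsin that trims the invariant chain, 0.47 (SE 0.17), and Lgmn, legumain, 0.25 (SE 0.09), with edgeR adjusted p of 0.615, 0.639 and 0.644. H2-Oa, whose promoter is shown above, was at 1.1, 1.82 and 1.02 CPM after anti-miR-99b and at 0.447, 0.528 and 1.05 CPM after sc-control (log2FC 0.95, SE 0.36, adjusted p = 0.64), so that sc-control mouse 4 was again in the range of the treated mice. H2-DMb1 (0.39, SE 0.23), H2-DMb2 (0.48, SE 0.31) and H2-Ob (0.27, SE 0.26) were of smaller size and none passed the test. H2-Eb2 had at most 5 reads in any library, and H2-Ea-ps, the broken I-E alpha gene, at most 1.

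In the co-cultures 4 cathepsins of this list were called. Of 8 genes tested these 4 were called higher (1.4% of all genes were called), with a list median of 0.10. Ctss rose with a log2FC of 0.31 (SE 0.06, edgeR adjusted p = 0.00367), from 17.7 ± 1.19 CPM (SD, n = 8) to 22 ± 2.28 CPM (n = 7). Ctsd rose with 0.17 (SE 0.03, adjusted p = 0.0103), Ctsl with 0.12 (SE 0.03, adjusted p = 0.0143) and Ctsb with 0.11 (SE 0.02, adjusted p = 0.00596). Lgmn (0.08, SE 0.03, adjusted p = 0.12) and Ifi30 (-0.03, SE 0.08) were not called. Within lanes 4, 5 and 7, each fitted alone, all 4 had a positive log2FC and 0 were called, where lane 5 holds 1 treated library against 3 controls, which is assumed to vary like them. With the lane as a block Ctsl (adjusted p = 0.0517) lost its call. Of 11 microglia markers tested in the same libraries 3 were called higher, Trem2 (log2FC 0.70, SE 0.11), Cx3cr1 (0.39, SE 0.08) and Csf1r (0.34, SE 0.05). Itgam (-0.24, SE 0.12) and Sall1 (-0.10, SE 0.03) were lower and not called. Of 3 border macrophage genes tested Ms4a7 (0.50, SE 0.07) was called, and Mrc1 (0.04, SE 0.17) and Pf4 (0.00, SE 0.25) were not. The 12 microglia markers summed to 126.3 to 145.5 CPM after anti-miR-99b against 120.2 to 140.3 CPM after sc-control. Their part in the protease levels was not tested. Per 1000 CPM of these markers Ctss was at 148.1 to 171.1 CPM after anti-miR-99b and 126.5 to 149 CPM after sc-control. In microglia 0 of 12 genes were called, and the log2FC of Ctss, Lgmn and Ifi30 was 0.05, 0.05 and 0.02 (SE 0.03, 0.02 and 0.03).

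The 16 genes of class II transcription run from the interferon gamma receptor to the RFX and NF-Y subunits. By edgeR 0 of the 15 tested were called in the PFC and 0 of 15 in the co-cultures, with median log2FC of 0.06 and 0.01, and 3 and 2 of them had an unadjusted p under 0.05. The count for the microglia is not reported here. Irf1, an interferon-induced factor that acts on the Ciita promoter, had a log2FC of 0.35 in the PFC (SE 0.12, adjusted p = 0.587), 0.08 in microglia (SE 0.04) and -0.04 in the co-cultures (SE 0.07). Rfx5, the DNA-binding subunit of RFX, was at 14.9 ± 0.582, 16.9 ± 1.17 and 14.7 ± 0.639 CPM in sc-control PFC, microglia and co-cultures, and its log2FC lay between -0.02 and 0.07 in the 3 experiments. Ifng had at most 2 reads in any library, and Socs1 gave no difference past the test.

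Of the 12 other costimulation and checkpoint ligands, 8 were tested in the PFC and all 8 had a positive log2FC, with a median of 0.33 and 0 called. Cd274, the PD-L1 ligand, was the first by p-value with 6 ± 0.962 against 3.64 ± 0.277 CPM (SD, n = 3 each; log2FC 0.72, SE 0.15, edgeR adjusted p = 0.234). In microglia Lgals9, galectin-9, was called higher, from 169 ± 14.2 to 193.9 ± 8.59 CPM (n = 4 each; log2FC 0.20, SE 0.04, adjusted p = 0.0421), as 1 of 7 tested. Leaving out sc-control library 4 or 6 or anti-miR-99b library 1, 4 or 5 ended this call (adjusted p 0.144 to 0.329). In the co-cultures 0 of 7 were called, and Cd274 (0.25, SE 0.07, adjusted p = 0.0957), Vsir (0.21, SE 0.07) and Havcr2 (0.35, SE 0.13) were higher without passing the threshold.

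The T cell partners of these ligands were scarce. Cd40lg had at most 1 read in any library, and Ctla4 at most 12. Of the 6 genes 3 were tested in the PFC, 3 in microglia and 0 in the co-cultures, and 0 were called. Pdcd1, the PD-1 receptor, was at 0.578 ± 0.154 against 0.175 ± 0.0359 CPM in the PFC (SD, n = 3 each; log2FC 1.70, SE 0.36, edgeR adjusted p = 0.268), on 5 to 18 reads. Cd4, the coreceptor for class II, was at 2.53, 2.25 and 2.93 against 4.02, 3.45 and 1.22 CPM in the PFC, with sc-control mouse 4 lowest. Cd28 was at 22.2 ± 0.717 CPM in sc-control microglia, against 0.315 ± 0.077 CPM in the PFC, in cultures whose T cell markers summed to at most 0.0472 CPM.

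Of the 10 genes of CD40 signalling 0 were called in any experiment. Their median log2FC was 0.16 in the PFC, 0.03 in microglia and 0.06 in the co-cultures, beside 0.003 for all genes. In the PFC Traf1, an adaptor induced by NF-kappaB, had a log2FC of 0.81 (SE 0.22, edgeR adjusted p = 0.393), and Nfkb2 and Relb, the non-canonical subunits, 0.46 (SE 0.17) and 0.24 (SE 0.11). In the co-cultures Traf3, the adaptor that holds this branch off, had a log2FC of -0.09 (SE 0.02, adjusted p = 0.0356), under the size threshold.

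The genes whose pattern was most like that of the class II genes were ranked by Pearson's r over the 29 libraries between each gene and the mean of Cd74, H2-Aa, H2-Ab1 and H2-Eb1, after the mean of each treatment group had been removed and the spread within an experiment set to 1. Genes with a high r were Tubb6 (0.72), Nfkbia (0.71), Ccdc57 (0.69), Ralb (0.67), Fgd2 (0.66), Adrb1 (0.65), Gm11870 (0.64), Cmtm7 (0.64) and Sdc4 (0.64). The libraries share their depth and their cell makeup within an experiment, so that r is a description only. Within the experiments r was uneven, for example 0.96, 0.28 and 0.78 for Nfkbia, the NF-kappaB inhibitor, in PFC, microglia and co-cultures, and 0.92, 0.16 and 0.75 for Fgd2. Of the other 5 members H2-DMa had an r of 0.43, Cd86 0.34, Cd40 0.22, Ciita 0.05 and Cd80 -0.26. In the PFC alone, over 6 libraries, r was 0.62 for Cd86, 0.47 for Cd80, 0.43 for Ciita, 0.31 for H2-DMa and 0.17 for Cd40. In microglia, where the chains had few reads, the chains themselves had r of only 0.31 to 0.51.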

How the data were processed

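Total RNA was made into unstranded poly(A) libraries (TruSeq RNA v2) and sequenced as 50 bp single reads. Per the labels and the methods of the study, the authors aligned them with STAR 2.5.2b to mm10 and counted them per gene with featureCounts 1.5.1, and the deposited values are these raw read counts. The annotation release and strand setting are not given in the sources used here. Of 48709 identifiers, 48349 had a GENCODE M21 symbol. Each experiment was fitted alone with edgeR 4.0.16 (TMM, filterByExpr, quasi-likelihood test, Benjamini-Hochberg adjustment); baseline levels were fitted over the 15 sc-control libraries and effect differences over all 29. Sequencing lanes were read from library names. SE is the log2FC divided by the root of F, and intervals are 1.96 SE. Exact permutation tests were two-sided, on mean CPM. DESeq2 1.42.0, RLE factors, no filter, an RUVs factor, lane and replicate blocks and single libraries left out were the alternatives. Checks on simulated counts recovered the fold changes put in. The 9 genes and all lists were chosen with earlier results of these data known. All members, all list genes past a threshold, a set of list genes and the genes most like the class II genes are named, except for items that are not reported here, and other named list and marker genes were chosen after their values were seen. No library was left out, and no 2 libraries of a group agreed within sampling noise.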

Additional observations from a re-analysis of the deposited data

Results flagged for a closer look

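Of 36 groups of 4 to 10 libraries examined for a library far from the rest of its group, 2 held one, and chance alone gives about 1 in 20. H2-Aa in microglia was at 0.204 CPM in sc-control replicate 4, against a group median of 0.091 CPM, in a gene with 2 to 6 reads per library. H2-Ab1 in the co-cultures was at 1.03 CPM in anti-miR-99b replicate 10, against a group median of 0.436 CPM. Neither gene was called in its experiment.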

How the results depend on the processing

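In the PFC 15 genes were called, against 412 without a filter on low counts, 84 with DESeq2, 308 with the RUVs factor, 77 with the lane as a block, 518 with the replicate block and 345 in lane 6 alone, and 1 to 201 with 1 mouse left out. Of the 9 genes, 0 were called, against 4 without a filter, 5 with the replicate block, 4 in lane 6 alone and 0 to 4 with 1 mouse left out. In microglia 73 were called, against 167 without a filter, 40 with DESeq2, 162 with the RUVs factor, 249 with the replicate block, 0 in lane 5, 229 in lane 6 and 2 to 409 with 1 library left out. In the co-cultures 227 were called, against 498 with the RUVs factor, 122 with the lane block, 95 with the replicate block and 9, 4 and 11 in lanes 4, 5 and 7. For the differences between experiments, no filter gave 230 genes (1 of the 9, Cd74 at 0.76), 767 and 55. The lanes were fitted alone after seeing the data, and the causes were not tested.

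Same-numbered libraries did not deviate together (correlations of -0.184 to 0.049), so the numbers were not taken to pair them, and in the PFC the replicate block rests on replicates 2 and 3 only. With the replicate block Ctss (log2FC 0.23, edgeR adjusted p = 0.0575) and Ctsl (0.09, adjusted p = 0.416) were not called in the co-cultures. Changes of sign occurred in genes that passed no test. In the PFC the log2FC of Ciita became 0.007 with the RUVs factor, 0.25 with the replicate block and 0.12 in lane 6, that of H2-DMa -0.021 with the replicate block and that of Cd80 0.14 in lane 6; with 1 mouse left out Ciita ran from -0.18 to 0.15 and Cd80 from -0.17 to 0.16. In microglia H2-DMa became 0.018 with the replicate block and 0.058 in lane 5, and in lane 6 Cd74 became -0.054 and Cd80 0.045; with 1 library left out Cd74 ran from -0.011 to 0.047, H2-DMa from -0.08 to 0.037, Cd80 from -0.15 to 0.053 and Cd86 from -0.016 to 0.093. In the co-cultures H2-Aa became -0.060 and Ciita 0.013 with the lane block, H2-Aa -0.13, H2-Ab1 -0.010 and Ciita 0.31 in lane 4, Cd74 -0.12, H2-Aa -0.017 and H2-Ab1 -0.29 in lane 5, and H2-Aa -0.089, H2-DMa 0.056 and Ciita 0.032 in lane 7. The difference of Cd40 between PFC and microglia became -0.020 without a filter, and H2-DMa in microglia against co-cultures ran from -0.045 to 0.088 with 1 library left out. Co-cultures with 1 library left out were not run.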
